A study of Mus musculus with 3264 samples.

Results

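Wells of a mouse T cell line were compared with wells of a mouse leukemia line among cells that had been picked by type from a mixture of cell lines. Each well was meant to hold 1 cell. All wells labelled T or leukemia on the 4 plates that the titles call target plates were taken, and the sorted and other plates of the series were not used here. Plates 1 to 4 gave 31, 32, 24 and 33 listed T wells, 120 in all, and 30, 34, 30 and 32 listed leukemia wells. Together these are 13.4% of the 1836 cell line wells that are listed with values, and the labels name 3264 wells in all. The 73 listed wells of a hematopoietic progenitor cell (HPC) line on the same plates were used only as a point outside both lines.

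The cells had been isolated by ALPS, an isolation method that the labels do not describe further, and the labels give each plate 36 T, 36 leukemia and 24 HPC wells. Each well's label names 1 line, which is read here as cells picked by type. The labels call the lines murine T cell, leukemia cell and hematopoietic progenitor cell, give the strain as not applicable, and name no line, clone, passage, culture, age or added agent. Cells of all 3 lines were mixed before they were picked, and no treatment is named for any of them. RNA of the cell lysate was reverse transcribed with an oligo(dT) primer that carries a molecular barcode, so the values are read here as counts of molecules per gene and well. The labels do not say whether the wells of a line came from 1 culture or from several. Each line therefore counts as 1 sample, no test was run and no p-value is given. Values are given per plate, which is a technical batch, and errors are the standard deviation (SD) over the 4 plates or exact 95% intervals that cover counting error only.

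T cells are lymphocytes that recognise peptide antigens through a T cell receptor. The receptor carries its signal through the CD3 chains, the kinases Lck and Zap70 and the adaptor Lat, and transcription factors such as Tcf7, Gata3 and Bcl11b set up the lineage in the thymus. Leukemias can arise from any stage of blood cell formation and often keep part of the gene programme of that stage. Cell lines of both kinds divide without limit in culture.

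Values are listed for 83.3% of the T wells that the labels name (Clopper-Pearson interval 76.2 to 89.02, plates 66.7 to 91.7%) and for 87.5% of the leukemia wells (80.97 to 92.4, plates 83.3 to 94.4%). A T well held a median of 37148 counts (17915 to 81813) and a leukemia well a median of 31868 (11627 to 80389). T wells were the deeper ones on plates 2, 3 and 4 and the shallower ones on plate 1, where the medians were 35614 in T wells and 39698 in leukemia wells. Summed per plate, T wells held 927351 to 1507144 counts and leukemia wells 988848 to 1183222. Thinned to 10000 counts, T wells held a median of 3171 genes (2697 to 3428) and leukemia wells a median of 3112 (2745 to 3356), so the ranges overlapped almost entirely. The precursor of ribosomal RNA, Rn45s, was 10.4% of the median T well and 11.4% of the median leukemia well.

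The labels were checked with genes that marked 1 line on the other 3 plates. Of its own line's genes, a T well held a count in a median of 95.1% (lowest 69.2) and a leukemia well in a median of 92% (lowest 62). Of another line's genes, the medians were 12% in T wells and 12.2% in leukemia wells, with 1 T well on plate 2 at 70% (35 of 50 HPC genes) and no leukemia well above 26.7%. By the summed level of these genes, 1 T well and 12 leukemia wells passed 20% of another line's level. In the 12 leukemia wells, 86.7 to 98.4% of that level came from 2 genes, either Lrrc17 with 1 other or Ccdc36 with Kif3a. In 1 of these wells Lrrc17 took the T level past the leukemia level. These 13 wells are called mixed below by this summed level only, and of them the T well alone held most of another line's genes. Results that moved when the 13 wells were left out are named beside the gene. Among HPC wells, 3 of the 18 on plate 4 carried the genes of another line, so HPC levels below are means of plates 1 to 3. On plate 3, 1 HPC well stood at 105.5% of the T level beside 98.1% of its own. It stays in these means, and without it 2 of 6862 genes, Ccdc36 and Kif3a, moved by 1.5-fold or more.

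Both lines were checked against cell type markers. Of 14 T cell markers, 10 reached a mean of 10 CPM in 1 of the lines, where CPM is the count scaled to a sum of 1000000 per plate and line, and the 14 summed to 2358 to 2499.8 CPM per plate in T wells and 1251.2 to 1628 CPM in leukemia wells. Cd3e and Tcf7 were present in both lines, and Cd247, the CD3 zeta chain, and Cd5 were at 0 in both. The leukemia label does not name a lineage, and its wells carried T lineage genes beside those that set it apart. B cell markers, of which 12 are listed, summed to 0 to 2.58 CPM in T wells and 0 to 2.84 CPM in leukemia wells, with Ms4a1, Pax5 and Ebf1 at 0. Of 16 monocyte, macrophage and granulocyte markers, Fcgr3, Fcgr1 and Ccr2 were lower in T wells, with sums of 7.63 to 27.3 CPM in T wells and 94.8 to 146.9 CPM in leukemia wells, and Lyz1, Cd14, S100a8, S100a9 and Elane at 0 in both lines. Of 16 progenitor markers, 2 reached 10 CPM, Myb and Ifitm1, and Kit and Flt3 were at 0 in both. The 10 NK cell markers summed to 0 to 6.73 CPM in T wells and 107.4 to 191.004 CPM in leukemia wells, nearly all of it Klrd1, with Ncr1, Gzma and Prf1 at 0. Of 13 erythroid, megakaryocyte and mast cell markers only Cpa3, a mast cell carboxypeptidase, reached 10 CPM, at 149.03 CPM in T wells and 90.5 CPM in leukemia wells, where T wells of plates 3 and 4 lay within the leukemia range.

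Counts were summed per plate and line, scaled to CPM, and compared as the difference of log2 (CPM + 1), T minus leukemia, within each plate. A gene was described when its mean reached 10 CPM in 1 of the lines, and counted as higher or lower in T wells when the mean difference was at least 2-fold with the same sign on all 4 plates. A value given after a gene as x ± y is its mean log2 difference, T minus leukemia, with the SD over the 4 plates. Of 8263 described genes, 14.8% were higher and 12.2% lower in T wells. The counts of higher and lower members given for each list below are to be read beside these shares. The 4 plates of T wells lay wholly above those of leukemia wells for 1951 genes (23.6%) and wholly below for 1869 (22.6%). The median difference over all described genes was 0.012, and the middle 50% ran from -0.51 to 0.59, so most genes stood close in both lines. At a limit of 4-fold, 6.5% were higher and 5.43% lower. The median SD over plates was 0.27 for the 3803 genes that reached 50 CPM in 1 of the lines.

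**Figure D1:**
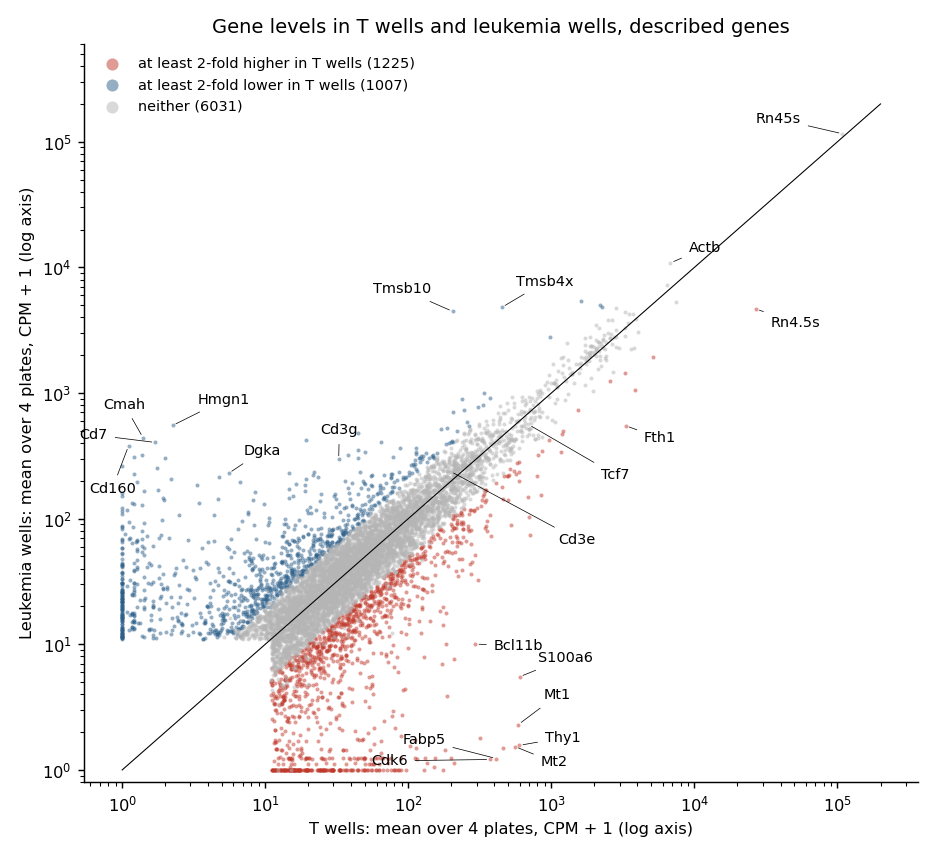
Mean level of each described gene over the 4 plates in T wells (x axis) and leukemia wells (y axis), in CPM + 1 on log axes, with 1 point per gene and the line of equal levels. The higher genes (14.8%) and the lower genes (12.2%) lie off the diagonal, down to genes at 0 in 1 line, and the rest lie along it.

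The 25 largest differences in each direction, among genes of at least 50 CPM and 30 counts in 1 of the lines, covered log2 differences of 6.31 to 8.65 for genes higher in T wells and of -8.43 to -6.40 for genes lower in T wells. Of the 25 higher genes, 7 had no count in any leukemia well (Ccdc91, Skap1, Kcnn4, Bdh1, Sp9, Ikzf3 and Mab21l2). Others were Mt2, Thy1, Fabp5, Chchd10, Cdk6, Mt1, Ly6a, Galnt6, Lgals7, Egln3, Tceal9, Cdkn1a, S100a6, Tex19.1, Oaf, Ggt1 and Blmh. Of the 25 lower genes, 7 had no count in any T well (Plagl1, Capn3, Cdkn2a, Gimap5, Chn2, Arhgef17 and Palm). The other 18 were Cd160, Cmah, Hmgn1, Cel, Cd7, Zyx, Ppic, Cacna2d2, Gimap6, Tnni1, Epsti1, Bach2, Klrd1, Cd27, Evl, Gimap1, Gabarapl1 and Satb1. The log2 difference of a gene at or near 0 in 1 line rests on the 1 CPM added, so counts are also given as ratios below.

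Several of these genes are known from tissues other than blood. Tex19.1, a gene of germ cells and placenta, stood at 94.5, 80.7, 163.9 and 177.2 CPM in T wells, against 0, 0, 1.01 and 0 CPM in leukemia wells. Sp9, a transcription factor of the developing brain and limb, stood at 80.8, 76.9, 84.1 and 94.9 CPM in T wells, against 0 CPM on every plate in leukemia wells. It was at least 120.4-fold higher when the leukemia wells together were given 3 counts, the floor used below for every line without a count, although its exons overlap those of Cir1 on the opposite strand (32.7 CPM in T wells and 51.9 CPM in leukemia wells). In the other direction, Cel, the bile salt lipase of pancreas and milk, stood at 0.859, 0, 0 and 0 CPM in T wells, against 351.7, 351.3, 262.1 and 264.9 CPM in leukemia wells. Tnni1, the troponin of slow muscle, stood at 0.43, 0.841, 1.08 and 0.663 CPM in T wells, against 343.98, 224.5, 228.5 and 214.2 CPM in leukemia wells. Capn3, a muscle protease, stood at 0 CPM on every plate in T wells, against 214.7, 167.4, 111.2 and 137.4 CPM in leukemia wells, at least 255.5-fold lower in T wells. All 5 were separated on every plate, and each line held genes of this sort.

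Mab21l2, at 80.4 CPM in T wells and 0 CPM in leukemia wells, lies within Lrba and overlaps its exons on the opposite strand, and Lrba stood at 96.4 CPM in T wells and 29.3 CPM in leukemia wells. Whether the counting used strand is not given in the sources used here, so reads of the pair cannot be told apart. Of the 50 genes, 13 overlap an exon of another listed gene, and apart from Mab21l2 and Sp9 the genes they overlap had at most 5.58 CPM in either line.

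Cells were also compared well by well, with every well thinned to 10000 counts. T wells held a count in at least 90% and leukemia wells in at most 5% for 7 genes: Cdk6, Chchd10, Fabp5, Mt1, Mt2, S100a6 and Thy1. The reverse held for 7 genes: Cacna2d2, Cd160, Cel, Cmah, Hmgn1, Plagl1 and Zyx. Both sets were picked by their counts in these same wells, so the recount that follows describes them and is no separate support. Without thinning, all 7 genes of the first set had a count in every one of the 120 T wells, and of the second set at most 3 genes had a count in any T well, with none in 88.3% of the wells. Of the leukemia wells, 97.6% had a count of all 7 genes of the second set and the rest of 6, and 76.2% had none of the first set, with at most 3 in any well.

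**Figure D2:**
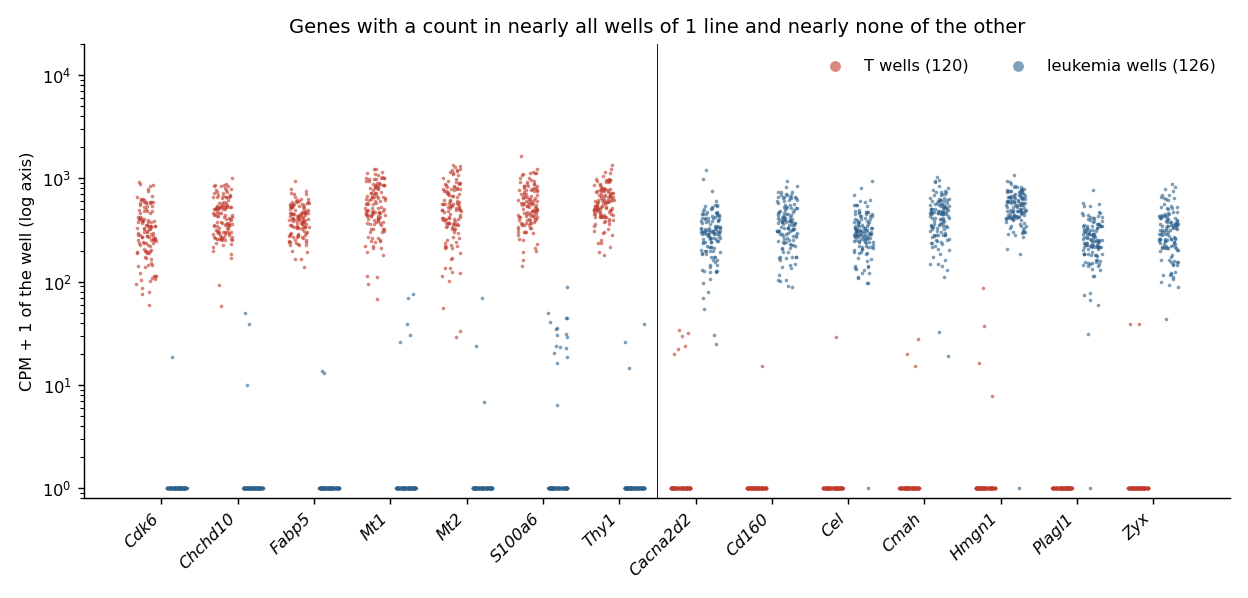
Level of the 14 genes in each T well (left of each tick) and leukemia well (right), in CPM + 1 on a log axis, with 1 point per well and wells without a count at 1. For Cdk6, Chchd10, Fabp5, S100a6, Thy1, Cd160 and Zyx every well of the high line lies above every well of the other, and for the other 7 genes 1 or more wells overlap.

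Thy1, the glycoprotein by which mouse T cells are often told from other blood cells, stood at 610.5, 629.3, 547.8 and 601.5 CPM in T wells, against 0.845, 0.484, 0 and 0.948 CPM in leukemia wells. By well the lowest, median and highest levels were 179.7, 582.4 and 1339.6 CPM over the T wells, against 0, 0 and 37.8 CPM over the leukemia wells. In thinned wells it had a count in 100% of T wells (interval 97 to 100), 0% of leukemia wells (0 to 2.89) and 0% of HPC wells (0 to 6.49). The ratio of T to leukemia wells in summed counts was 1278.8 (interval 353.7 to 10564). Cd160, a receptor of cytotoxic lymphocytes, showed the reverse, at 0.43, 0, 0 and 0 CPM in T wells, against 379.5, 452.9, 336.2 and 342.6 CPM in leukemia wells. The well levels, in the same order, were 0, 0 and 14.2 CPM over the T wells, against 87.5, 369.2 and 944.2 CPM over the leukemia wells. Every T well lay above every leukemia well for Thy1 and below every one for Cd160, with stray counts of Thy1 in 3 leukemia wells and of Cd160 in 1 T well.

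The antigen receptor complex differed between the lines in its subunits. Of 14 listed members 10 have a row, and 3 reached 10 CPM. The constant regions of the receptor chains have no row in the table. Cd3e, a signalling subunit, stood at 182.2, 176.6, 232.9 and 192.4 CPM in T wells, against 235.8, 205.1, 230.1 and 277.7 CPM in leukemia wells, and the plates overlapped (log2 difference -0.27 ± 0.23, SD over 4 plates). Cd3g, the CD3 gamma chain that pairs with it, stood at 32.7, 42, 25.9 and 25.9 CPM in T wells, against 338.1, 303.8, 250.8 and 288.1 CPM in leukemia wells, 9.42 (interval 7.95 to 11.2) times lower in T wells with no overlap of the plates. Thinned wells with a Cd3g count were 20.8% of T wells (interval 14 to 29.2), 91.3% of leukemia wells (84.9 to 95.6) and 0% of HPC wells (0 to 6.49), while Cd3e was seen in 83.3% of T wells (interval 75.4 to 89.5), 85.7% of leukemia wells (78.4 to 91.3) and 0% of HPC wells (0 to 6.49). The neighbouring gene Cd3d, which encodes the delta chain, averaged 8.91 CPM in T wells and 8.85 CPM in leukemia wells, too low to be described. Cd8b1, a chain of the CD8 coreceptor, stood at 17.2, 26.3, 78.7 and 49.8 CPM in T wells, against 0, 0.319, 1.01 and 1.73 CPM in leukemia wells. Cd247 and Cd4 were at 0 or near it in both lines, at 0 against 0 CPM and 0.215 against 0 CPM in T and leukemia wells. Cd3e was thus detected in both lines, Cd3g chiefly in leukemia wells and Cd8b1 chiefly in T wells. The other members with a row stayed below 10 CPM, and the constant regions could not be judged.

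**Figure D3:**
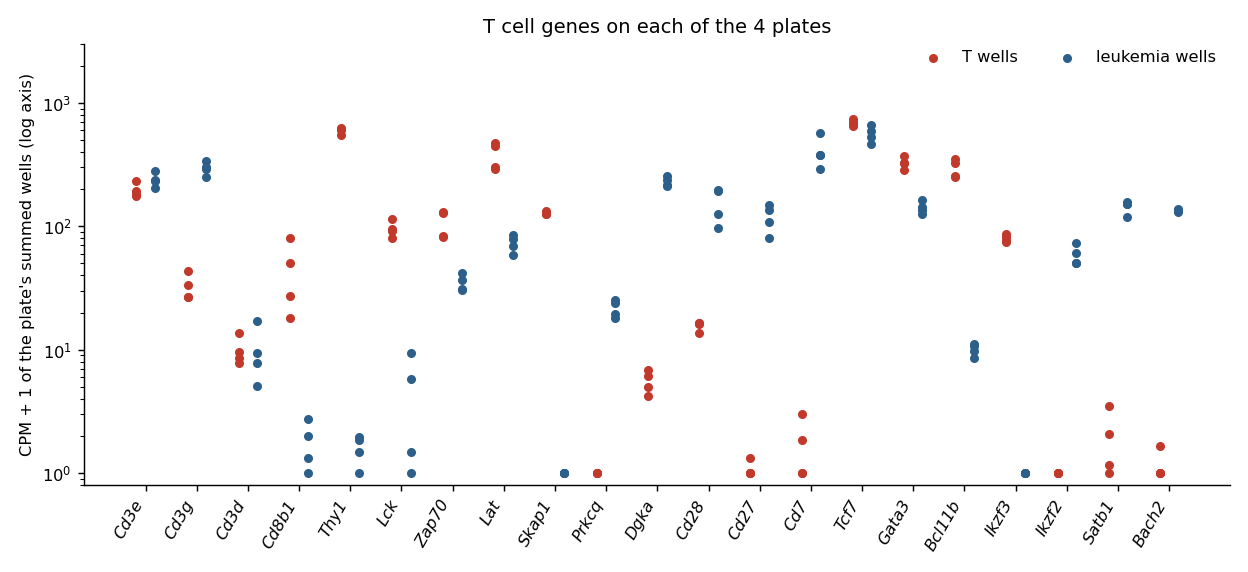
Level of 21 T cell genes in the summed wells of each plate, in CPM + 1 on a log axis, with the 4 T plates left and the 4 leukemia plates right of each tick. Cd3e and Tcf7 overlap between the lines, Thy1, Skap1, Bcl11b and Ikzf3 stand high in T wells, and Cd3g, Dgka, Cd7, Satb1 and Bach2 stand high in leukemia wells.

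Downstream of the receptor, 29 of 41 genes were described, and 8 were higher and 7 lower in T wells (median -0.32). Skap1, an adaptor that links the receptor to integrins, stood at 123.7, 131.997, 128.3 and 124.1 CPM in T wells, against 0 CPM on every plate in leukemia wells, at least 180.1-fold higher, with an SD of the log2 difference over plates of 0.044. Lck, the kinase that starts the signal, stood at 90.6, 79, 94.9 and 112.8 CPM in T wells, against 8.45, 0.484, 0 and 4.74 CPM in leukemia wells, and with these leukemia plates the SD of its log2 difference was 1.47. Lat, the scaffold on which the signal is assembled, stood at 289.6, 303.8, 445.6 and 473.8 CPM in T wells, against 83.2, 67.7, 57.6 and 77.7 CPM in leukemia wells. Zap70, the kinase that phosphorylates Lat, averaged 104.7 CPM in T wells and 33.9 CPM in leukemia wells (1.58 ± 0.58). Themis, which tunes the signal in thymocytes, Grb2, a general adaptor, and Tespa1 were also higher, with log2 differences of 3.82, 2.55 and 2.14.

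Genes of the same pathway stood lower in T wells as well. Dgka, which removes the messenger diacylglycerol and so damps the signal, stood at 5.16, 5.89, 3.23 and 3.98 CPM in T wells, against 209.6, 234.7, 254.8 and 217.04 CPM in leukemia wells, 49.6 (interval 32.6 to 79.6) times lower in T wells. Sh2d1a, the SAP adaptor of SLAM receptors, stood at 0 CPM on every plate in T wells, against 33, 31.9, 30.3 and 20.9 CPM in leukemia wells. Prkcq, the protein kinase C that the receptor engages, stood at 0 CPM on every plate in T wells, against 16.9, 18.4, 24.3 and 22.7 CPM in leukemia wells, so both were at 0 in all T wells. Nfatc1, a calcium-driven transcription factor (-2.41 ± 0.60), Ubash3b, a phosphatase (-1.56 ± 0.85), Csk, the kinase that restrains Lck (-1.36 ± 0.46), and Dgkz (-1.02 ± 0.24) were the other 4. Of the 14 in neither direction, Fyn (-0.76 ± 0.60) had overlapping plates, and Ptprc, the CD45 phosphatase, averaged 437.1 CPM in T wells and 492.8 CPM in leukemia wells.

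Transcription factors of the T lineage were split in the same way. Of 28 described of 39, 11 were higher and 6 lower in T wells (median 0.41). Tcf7, the early T lineage factor, stood at 732.7, 685.4, 700.7 and 645.6 CPM in T wells, against 527.8, 462.5, 596.1 and 657.3 CPM in leukemia wells, and the plates overlapped. Gata3, which acts with it in the thymus, stood at 370.3, 324.5, 324.6 and 283.3 CPM in T wells, against 141.1, 161.1, 133.5 and 124.2 CPM in leukemia wells. Bcl11b, which seals T lineage commitment, stood at 347.99, 323.7, 248.02 and 256.1 CPM in T wells, against 9.72, 8.71, 10.1 and 7.58 CPM in leukemia wells, a ratio of 32.9 (interval 23.9 to 46.7), with no overlap. Rora (4.97 ± 0.75), Tox2 (4.77 ± 0.66), Myb (3.28 ± 0.79), Zbtb7b (3.10 ± 1.09), Ets1 (2.78 ± 1.47), Lef1 (1.64 ± 1.07), Tox (1.49 ± 0.26) and Runx2 (1.41 ± 0.41) were also higher on the log2 scale. Satb1, a chromatin organiser of thymocytes, stood at 0, 2.52, 1.08 and 0.166 CPM in T wells, against 117.7, 151.9, 151.7 and 156.4 CPM in leukemia wells. Bach2, a repressor that keeps lymphocytes from effector fates, stood at 0, 0, 0 and 0.663 CPM in T wells, against 136.1, 133.5, 129.4 and 133.6 CPM in leukemia wells. Id3 (-4.19 ± 0.76) and Klf2, which drives exit from the thymus (-3.21 ± 1.12), were lower too.

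The Ikaros family of zinc finger factors was divided between the lines. Ikzf3, or Aiolos, stood at 81.2, 84.9, 73.3 and 76.3 CPM in T wells, against 0 CPM on every plate in leukemia wells. Ikzf2, or Helios, stood at 0 CPM on every plate in T wells, against 72.7, 49.3, 49.6 and 59.2 CPM in leukemia wells. Ikzf1, or Ikaros itself, stood at 42.1, 47.7, 48.5 and 57.1 CPM in T wells, against 181.7, 167.4, 196.7 and 201.9 CPM in leukemia wells. Thus T wells held Ikzf3 and no Ikzf2, leukemia wells held Ikzf2 and no Ikzf3, and both held Ikzf1 at different levels, with no overlap of the plates for any of the 3.

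On the cell surface, 4 of 15 described costimulatory, checkpoint and other receptors were higher and 7 lower in T wells (median -0.76). Pdcd1, the inhibitory receptor PD-1, stood at 30.1, 28.6, 24.8 and 25.2 CPM in T wells, against 0 CPM on every plate in leukemia wells. The other higher genes were Tnfrsf18 or GITR (3.78 ± 0.84), and the tetraspanins Cd81 (3.50 ± 0.40) and Cd82 (1.27 ± 0.19). Cd28, the main costimulatory receptor, stood at 15.5, 12.6, 15.1 and 15.6 CPM in T wells, against 124.2, 95.8, 195.2 and 191.4 CPM in leukemia wells. Cd27, a costimulatory receptor of the TNF receptor family, stood at 0, 0, 0 and 0.332 CPM in T wells, against 146.6, 106.9, 135.01 and 79.6 CPM in leukemia wells. Cd7, known from the surface of immature T cells and of NK cells, stood at 0, 0.841, 0 and 1.99 CPM in T wells, against 376.1, 291.3, 379.2 and 565.8 CPM in leukemia wells. Its lowest, median and highest well levels were 0, 0 and 38.3 CPM over the T wells, against 0, 243.3 and 3063 CPM over the leukemia wells, so leukemia wells ranged from none to high levels. Cd96 (-5.49 ± 1.11), Cd69 (-3.33 ± 0.76) and Cd53 (-1.73 ± 0.32) were the other lower genes beside Cd160. All 3 described genes of the Thy1 and Ly6 family were higher in T wells. Beside Thy1 these were Ly6a, or Sca-1, which stood at 478.7, 402.02, 197.9 and 189.9 CPM in T wells, against 0.845, 0, 2.28 and 0 CPM in leukemia wells. The third, Ly6e, stood at 723.9, 661.2, 473.4 and 497.96 CPM in T wells, against 298.3, 273.6, 223.998 and 144.1 CPM in leukemia wells.

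Of 30 described cytokine receptor and JAK-STAT genes, 6 were higher and 8 lower (median 0.053). Tnfrsf1a, the main TNF receptor, stood at 42.1, 42, 36.7 and 41.1 CPM in T wells, against 0, 0.968, 0 and 0 CPM in leukemia wells. Il4ra, the interleukin-4 receptor, stood the other way, at 0.859, 0.841, 0 and 0 CPM in T wells, against 16.1, 26.1, 28.3 and 33.2 CPM in leukemia wells. Il2rg, the chain that several interleukin receptors share, averaged 177.5 CPM in T wells and 91.6 CPM in leukemia wells (0.95 ± 0.15). Il18r1 (-3.84 ± 0.59), Il21r (-3.48 ± 1.30) and the kinase Pim2 (-3.35 ± 0.64) were lower, Tgfbr2 (1.83 ± 0.53) and Stat3 (1.20 ± 0.14) higher. Il7r, the interleukin-7 receptor of resting T cells, was at 0 against 2.14 CPM in T and leukemia wells, below the level described.

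Of 23 described chemokine receptor, integrin and adhesion genes, 5 were higher and 9 lower in T wells (median 0.40, the other sign from the balance of calls). Itgal, the alpha chain of the LFA-1 integrin, stood at 56.7, 52.1, 67.9 and 67 CPM in T wells, against 0 CPM on every plate in leukemia wells. Its beta chain Itgb2 averaged 72 CPM in T wells and 51.5 CPM in leukemia wells, with overlapping plates, and its ligand Icam1 was at 0 in T wells and 10.5 CPM in leukemia wells. Ccr4, a chemokine receptor of helper T cells, stood at 25.8, 39.5, 54.5 and 52.7 CPM in T wells, against 0.845, 0, 0 and 0 CPM in leukemia wells. Cx3cr1, the fractalkine receptor, stood at 0, 0.841, 1.08 and 0 CPM in T wells, against 78.6, 70.6, 71.8 and 67.8 CPM in leukemia wells. S1pr4, a sphingosine phosphate receptor, stood at 0.859, 0, 0 and 0.663 CPM in T wells, against 65.1, 57.1, 87 and 60.7 CPM in leukemia wells. Emb, or embigin (-4.90 ± 0.42), Itgb7 (-3.21 ± 0.36) and Cd47 (-2.07 ± 1.03) were lower as well, and Cxcr4 (0.82 ± 0.98) was in neither group.

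NK cell receptor and cytotoxic granule genes were mostly low. Of 26 listed, 5 were described, 0 were higher and 2 lower in T wells. Klrd1, or CD94, stood at 0, 0.841, 0 and 0 CPM in T wells, against 101.6 to 183.4 CPM in leukemia wells. After thinning it had a count in 0% of T wells (interval 0 to 3.03), 58.7% of leukemia wells (49.6 to 67.4) and 7.27% of HPC wells (2.02 to 17.6). Klrk1, or NKG2D, stood at 0 CPM on every plate in T wells, against 28.7, 37.3, 15.2 and 23.7 CPM in leukemia wells. Ccl5, a chemokine of activated T cells, stood at 0, 15.1, 3.23 and 37.8 CPM in T wells, against 0 CPM on every plate in leukemia wells, and with no count on plate 1 it was not counted as higher.

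Genes of MHC class I antigen presentation differed in both directions. Of 19 described genes, 5 were higher and 6 lower in T wells (median -0.39). Tap2, a subunit of the peptide transporter, stood at 295.6, 290.1, 231.3 and 284.6 CPM in T wells, against 41.4, 33.4, 37.4 and 28.4 CPM in leukemia wells. Tap1 (2.19 ± 0.44), Tapbp (1.12 ± 0.35) and the immunoproteasome subunits Psmb9 (2.34 ± 0.79) and Psmb8 (1.30 ± 0.38) were higher too. Tap1 and Psmb9 overlap each other on opposite strands, so, with strand use not given, reads of this pair cannot be told apart. The lower ones were class I chains and a trimming protease. B2m, the light chain, stood at 231.1, 218.2, 164.4 and 182.8 CPM in T wells, against 407.4, 392.4, 374.2 and 450.2 CPM in leukemia wells. H2-D1, a heavy chain, stood at 55.4, 73.6, 35.9 and 31.8 CPM in T wells, against 330.1, 330.2, 306.02 and 378.9 CPM in leukemia wells. H2-M3 (-2.11 ± 0.14), H2-L (-4.73 ± 0.26), H2-T23 (-1.10 ± 0.25) and Erap1 (-1.11 ± 0.45) were also lower. H2-K1, the other classical heavy chain, stood at 262.9, 278.9, 106.03 and 104.7 CPM in T wells, against 233.3, 226.4, 181.8 and 208.7 CPM in leukemia wells, above leukemia wells on plates 1 and 2 and below them on plates 3 and 4. Heavy chains are near-identical copies, and 44.7% of the positive values of H2-D1 and 67.6% of those of H2-L were not whole numbers, so their split is uncertain. No gene of class II presentation reached 10 CPM in either line.

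Of 13 described interferon-stimulated genes, 4 were higher and 5 lower (median 0.28), led by Ifitm2 (2.67 ± 1.34), Isg20 (2.60 ± 0.49) and Ifi27 (2.09 ± 0.70) on the one side and Trim30a (-4.51 ± 0.25), Ifitm1 (-3.42 ± 0.74) and Gbp4 (-2.86 ± 0.48) on the other. Epsti1, an interferon-induced gene outside that list, stood at 0.859, 0.841, 0 and 0 CPM in T wells, against 187.6, 201.6, 115.8 and 155.4 CPM in leukemia wells.

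The Gimap genes encode GTPases of lymphocytes that lie side by side on chromosome 6, and they were grouped here only after their values had been seen. Of 8 listed, 6 were described and all 6 were lower in T wells. Gimap6 stood at 0, 0, 1.08 and 0 CPM in T wells, against 172.4, 210.2, 232.6 and 162.1 CPM in leukemia wells. Gimap5, which lymphocytes need for survival, stood at 0 CPM on every plate in T wells, against 125.1, 144.7, 109.2 and 102.4 CPM in leukemia wells, at least 192.5-fold lower in T wells. Gimap1 stood at 0.859, 0, 1.62 and 0.663 CPM in T wells, against 193.5, 157.7, 177.5 and 148.8 CPM in leukemia wells, a difference of 203.4 (interval 79.1 to 748.5) times. Gimap4 (-5.34 ± 0.22), Gimap8 (-5.03 ± 0.28) and Gimap9 (-2.58 ± 0.87) were lower too, and HPC wells stood between the lines for Gimap1 (29.2 CPM) and Gimap6 (33 CPM). From Gimap8 to Gimap5 these genes span 48647186 to 48754200 of chromosome 6 in GRCm38, the assembly that mm10 denotes.

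Metallothioneins are small proteins that bind zinc and copper and are switched on by the metal-sensing factor Mtf1 through short metal response elements in their promoters. Mt1, Mt2 and Mt3, which lie side by side on chromosome 8, were higher in T wells. Mt2 stood at 457.1, 549.4, 603.9 and 616.4 CPM in T wells, against 0, 0.242, 0 and 1.90 CPM in leukemia wells. Mt1 stood at 457.97, 445.2, 685.3 and 757.4 CPM in T wells, against 0.423, 0.968, 0 and 3.79 CPM in leukemia wells. Mt3, known chiefly from brain, stood at 30.9, 12.6, 22.6 and 46.4 CPM in T wells, against 0 CPM on every plate in leukemia wells. In leukemia wells Mt1 and Mt2 had 5.50 and 2.25 counts in all, and the ratios were 421.2 (interval 193.3 to 1148.8) and 1189.8 (interval 329.1 to 9829.6). By well, the lowest, median and highest Mt1 levels were 66.3, 512.98 and 1236.7 CPM over the T wells, against 0, 0 and 75.6 CPM over the leukemia wells. Across the T wells (n = 120), thinned to 10000 counts, Mt1 and Mt2 had a Spearman correlation of 0.35, and 0.15 to 0.50 within single plates, given as a description since wells share plate and depth. HPC wells held Mt1 at 598.1 CPM and Mt2 at 188.1 CPM, and Mt3 at 0 on plates 1 to 3.

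The 250 bases before the start of Mt2 and of Mt3 are shown because both genes were higher in T wells than in leukemia wells, while HPC wells on plates 1 to 3, with Mt2, had no count of Mt3. They are given on the plus strand of GRCm38.p6, from RefSeq, at chr8:94172368-94172617 and chr8:94152357-94152606. Capitals mark matches to the core of a metal response element, TGCACNC or TGCGCNC on either strand.
Mt2: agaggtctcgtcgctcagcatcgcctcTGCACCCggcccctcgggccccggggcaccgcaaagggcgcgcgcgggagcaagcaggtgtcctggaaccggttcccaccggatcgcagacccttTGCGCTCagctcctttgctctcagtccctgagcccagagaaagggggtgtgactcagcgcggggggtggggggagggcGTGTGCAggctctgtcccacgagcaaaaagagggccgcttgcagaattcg
Mt3: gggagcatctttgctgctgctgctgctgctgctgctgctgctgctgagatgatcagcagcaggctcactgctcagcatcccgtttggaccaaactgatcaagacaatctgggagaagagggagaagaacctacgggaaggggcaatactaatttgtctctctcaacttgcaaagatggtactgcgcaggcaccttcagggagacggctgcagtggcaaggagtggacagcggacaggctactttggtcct
Mt2 held 3 matches and Mt3 none in these letters. In windows of 300 bases, which run 50 bases past the start, Mt2 held 4 and Mt3 held 1. At least 1 match was found in the same 250 bases of 21.4% of 32851 promoter windows, and at least 3 in 1.26%. A match describes letters and not a site in use. The window listed for Mt1 overlaps an annotated transcript of the gene and is not shown.

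The rest of the zinc list did not follow the metallothioneins as a block. Of 16 described members of the whole list, 6 were higher, with Mt1, Mt2 and Mt3 among them, and 2 lower (median -0.038). Mtf1 itself stood at 18, 16, 19.4 and 18.6 CPM in T wells, against 22.8, 17.4, 20.2 and 16.1 CPM in leukemia wells, with a log2 difference of -0.076 that was 0.14 without the 13 mixed wells, and Slc30a1, a zinc exporter, averaged 30.7 CPM in T wells and 51.6 CPM in leukemia wells (-0.84 ± 0.77). The importers Slc39a4 (2.94 ± 1.79), Slc39a3 (2.03 ± 0.55) and Slc39a8 (1.69 ± 0.67) were higher, and Slc39a10 (-2.22 ± 0.39) and Slc39a6 (-2.01 ± 0.21), importers too, were lower.

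Iron and redox genes were more often higher than lower. Of 11 described iron genes, 5 were higher and 1 lower (median 0.77), and of 31 oxidative stress and glutathione genes, 9 were higher and 1 lower (median 0.49). The shares over all described genes were 14.8% and 12.2%. Fth1, the ferritin heavy chain that stores iron, stood at 3313, 3164, 3057 and 3728 CPM in T wells, against 531.2, 461.1, 526.6 and 669.6 CPM in leukemia wells. Hmox1, which breaks down heme and is in both lists, stood at 45.5, 34.5, 48.5 and 55.7 CPM in T wells, against 0, 0, 0 and 0.948 CPM in leukemia wells. Gsto1, a glutathione transferase, stood at 56.3, 60.5, 51.8 and 79.6 CPM in T wells, against 0, 0.968, 0 and 0 CPM in leukemia wells. Gclm, a subunit of the enzyme that makes glutathione, stood at 171.8, 180.8, 269.05 and 280.995 CPM in T wells, against 32.5, 43.5, 58.1 and 54 CPM in leukemia wells, while its partner Gclc averaged 49 CPM in T wells and 62.6 CPM in leukemia wells (-0.36 ± 0.33). Txn1, or thioredoxin, Cat, or catalase, Nqo1 and Prdx5 were higher too, with log2 differences of 1.32, 1.36, 3.28 and 1.13, and that of Sod1 was 0.021. Tfrc, the transferrin receptor, averaged 271.7 CPM in T wells and 302.7 CPM in leukemia wells, and Steap3, an iron reductase, was the lower iron gene (-2.91 ± 0.41). The near-identical Gstp1 and Gstp2 had the same difference, 0.60, and cannot be told apart.

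Glycolysis and hypoxia genes were more often higher than lower in T wells. Of 25 described genes, 7 were higher and 3 lower, where 14.8% and 12.2% of all described genes were. The median was 0.73, against 0.012 over all described genes. Hk1, which traps glucose in the cell, stood at 143.5, 197.2, 171.995 and 177.5 CPM in T wells, against 16.1, 19.4, 23.3 and 17.1 CPM in leukemia wells. Egln3, an oxygen sensor that hypoxia induces, stood at 106.5, 69.8, 205.4 and 221.9 CPM in T wells, against 0.211, 0, 0 and 0 CPM in leukemia wells. Ldhb (4.81 ± 0.40), Slc16a3, a lactate exporter (3.48 ± 1.20), Aldoa (1.30 ± 0.38), Pgk1 (1.19 ± 0.16) and Ldha (1.07 ± 0.099) were the other 5. The hypoxia targets Slc2a3 (-1.10 ± 0.41), Pfkfb3 (-1.27 ± 0.24) and Vegfa (-1.33 ± 1.28) were lower, so the oxygen-linked genes did not share a direction.

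Some genes of T wells differed by plate. In T wells, 62 of 3182 genes of at least 50 CPM were at least 2-fold higher and 82 lower on plates 3 and 4 than on plates 1 and 2 without overlap. In leukemia wells, 3 of 3185 such genes were higher and 13 lower. This grouping of the plates was chosen after the values had been seen, and the labels do not say how the plates differ. Of the 18 genes of the lipid list with at least 50 CPM in T wells, 11 were lower on plates 3 and 4 in this sense and 0 higher. In leukemia wells 0 of 13 were. Of the 20 Atf4 response genes at that level in T wells, 9 were lower and 0 higher, against 4 and 0 of 16 in leukemia wells. Fdps, an enzyme of cholesterol synthesis, stood at 572.2, 471.9, 72.2 and 80.9 CPM in T wells, against 206.6, 211.9, 125.4 and 117.996 CPM in leukemia wells. Insig1, a brake on that pathway, stood at 207.5, 208.5, 39.4 and 37.2 CPM in T wells, against 50.9, 58.1, 37.6 and 37.9 CPM in leukemia wells. Scd1, a fatty acid desaturase, stood at 168.4, 151.6, 12.9 and 17.9 CPM in T wells, against 0 CPM on every plate in leukemia wells. Trib3, a pseudokinase induced by Atf4, stood at 148.6, 127.8, 18.3 and 7.30 CPM in T wells, against 11, 18.4, 6.07 and 9.48 CPM in leukemia wells. Fdps was above leukemia wells on plates 1 and 2 and below them on plates 3 and 4, Insig1 was above on plates 1 and 2 and close to leukemia wells on plates 3 and 4, Trib3 was above on plates 1 to 3 and slightly below on plate 4, and Scd1 was above on every plate.

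Over all plates, 4 of 25 described lipid genes were higher and 1 lower (median 0.33), where 14.8% and 12.2% of all described genes were. Fabp5, a fatty acid carrier, did not vary in this way, at 448.5, 344.7, 398.4 and 456.5 CPM in T wells, against 0.423, 0, 0.506 and 0 CPM in leukemia wells, and had a count in 98.3% of T wells (interval 94.1 to 99.8), 0% of leukemia wells (0 to 2.89) and 89.1% of HPC wells (77.8 to 95.9) after thinning. Elovl6, a fatty acid elongase, was the lower one (-1.92 ± 0.36). Of 26 described genes of the Atf4 response, 7 were higher and 2 lower (median 0.23). Atf4 itself averaged 462.6 CPM in T wells and 485.2 CPM in leukemia wells (-0.12 ± 0.24). Ddit4, an inhibitor of mTORC1, stood at 122.9, 130.7, 112.1 and 101.8 CPM in T wells, against 16.1, 22.3, 7.08 and 11.4 CPM in leukemia wells. Ddit3, or CHOP, stood at 124.6, 184.96, 42.1 and 40.5 CPM in T wells, against 25.4, 23.2, 9.10 and 19.9 CPM in leukemia wells. Slc7a11, the cystine importer, stood at 26.2, 25.2, 16.2 and 11.9 CPM in T wells, against 96.8, 127.2, 94 and 123.2 CPM in leukemia wells. Ddit4 and Ddit3 were higher and Slc7a11 lower on all plates, although Ddit3 in T wells was higher on plates 1 and 2.

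Most genes of dividing cells stood within 2-fold of each other in both lines. Of 36 DNA replication genes, all described, 3 were higher and 1 lower in T wells (median -0.14), a smaller share in each direction than the 14.8% and 12.2% over all described genes. These means cover a difference between plates. The 36 genes summed to 3740 to 6145 CPM per plate in T wells and 4828 to 5577 CPM in leukemia wells. Among the genes 2-fold higher on plates 3 and 4 in T wells were Mcm3 (185.6, 177.4, 374.7 and 356.6 CPM) and Uhrf1 (105.7, 95.2, 211.4 and 206.7 CPM). Of 34 genes of G2 and mitosis, all described, 2 were higher and 2 lower (median 0.13). Pcna, the replication clamp, averaged 375.2 CPM in T wells and 388.3 CPM in leukemia wells, and Mki67, the proliferation marker, 286.1 CPM in T wells and 242.4 CPM in leukemia wells. Aurka, a mitotic kinase (2.06 ± 0.56), and Ube2c, which tags cyclins for destruction (1.75 ± 0.16), were higher, and Cdc20, its partner in mitotic exit (-2.30 ± 0.12), and Hmmr (-1.30 ± 0.42) lower. Tyms (1.37 ± 0.49), Rrm2 (1.03 ± 0.56) and Rpa1 (1.01 ± 0.054) were the higher replication genes and Mcm7 (-1.09 ± 0.48) the lower one.

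Regulators of entry into the cycle included some of the largest differences. Of 19 described genes, 5 were higher and 3 lower in T wells (median -0.088). Cdk6, a kinase that drives G1, stood at 267.2, 258.9, 541.3 and 424.6 CPM in T wells, against 0.845, 0, 0 and 0 CPM in leukemia wells, a ratio of 1567 (interval 280.9 to 61933). Its relative Cdk4 stood at 196.3, 190.4, 212.97 and 239.5 CPM in T wells, against 290.3, 260.3, 241.2 and 206.6 CPM in leukemia wells, and the plates overlapped. Cdkn1a, the p21 inhibitor, stood at 87.6, 121.9, 153.7 and 169.9 CPM in T wells, against 0, 0, 0.506 and 0 CPM in leukemia wells. Cdkn2a, which encodes the inhibitor p16 and the p53 activator Arf, stood at 0 CPM on every plate in T wells, against 137.8, 138.4, 181.02 and 139.8 CPM in leukemia wells, at least 236.7-fold lower in T wells. Thus T wells held Cdk6 and Cdkn1a without Cdkn2a, and leukemia wells held Cdkn2a with a Cdk6 count in 1 well and 0.5 counts of Cdkn1a in all. Cdkn2c (2.69 ± 0.30), Rb1 (2.39 ± 0.59) and Rbl1 (1.26 ± 0.49) were higher too, Ccnd2 (-1.26 ± 0.42) and Cdkn1c (-3.77 ± 0.83) lower, and Ccnd3 averaged 345.6 CPM in T wells and 306.02 CPM in leukemia wells.

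Of 23 described apoptosis genes, 5 were higher and 3 lower (median 0.094). Bcl2l1, which encodes the survival protein Bcl-xL, stood at 24.1, 16.8, 20.5 and 21.2 CPM in T wells, against 225.2, 235.1, 217.4 and 202.2 CPM in leukemia wells. Mcl1, another survival protein, averaged 391.4 CPM in T wells and 201.02 CPM in leukemia wells (0.88 ± 0.44), and Bcl2 was low in both lines (8.89 against 13.4 CPM in T and leukemia wells).

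The actin cytoskeleton had fewer higher members than lower ones. Of 48 described genes, 4 were higher and 11 lower in T wells (median -0.31), where 14.8% and 12.2% of all described genes were. Tmsb10, a thymosin that sequesters actin monomers, stood at 269.4, 258.1, 131.6 and 155.4 CPM in T wells, against 5007, 4304, 4250.3 and 4277 CPM in leukemia wells. Its relative Tmsb4x stood at 381.7, 498.4, 407.3 and 515.7 CPM in T wells, against 5342, 4585, 4276 and 5049.7 CPM in leukemia wells, so both were lower in T wells with no overlap of the plates. Zyx, or zyxin, a focal adhesion protein, stood at 0, 0.841, 0 and 0.663 CPM in T wells, against 278.9, 301.9, 319.6 and 390.7 CPM in leukemia wells. Tpm4 (-3.41 ± 0.24), Coro1a (-1.89 ± 0.28), Actg1 (-1.53 ± 0.29) and Myl12a (-1.50 ± 0.16) were lower as well. Gsn, or gelsolin, which severs filaments, stood at 238.01, 257.3, 149.4 and 184.1 CPM in T wells, against 4.23, 6.77, 3.03 and 12.3 CPM in leukemia wells. Actn1, which bundles them, stood at 75.6, 70.6, 75.5 and 83.6 CPM in T wells, against 0, 2.90, 0 and 3.79 CPM in leukemia wells. Actb averaged 6793 CPM in T wells and 10847 CPM in leukemia wells (-0.68 ± 0.11). Evl, an actin regulator outside the list, stood at 1.72, 1.68, 0 and 1.33 CPM in T wells, against 222.7, 181.9, 214.4 and 210.4 CPM in leukemia wells.

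S100 proteins, small calcium-binding proteins whose genes lie in a cluster, were divided. Of 17 described S100, annexin and galectin genes, 6 were higher and 4 lower (median 0.53). S100a6 stood at 492.3, 541.4, 704.7 and 659.6 CPM in T wells, against 2.54, 2.90, 8.596 and 4.03 CPM in leukemia wells. S100a4 stood at 518.97, 551.9, 877.2 and 800.2 CPM in T wells, against 120.01, 104.5, 131.5 and 236.5 CPM in leukemia wells, and both were higher in T wells. S100a10, the partner of annexin A2, stood at 78.2, 76.4, 46.9 and 51.8 CPM in T wells, against 429.8, 408.8, 394.98 and 404.2 CPM in leukemia wells. S100a11 stood at 9.45, 16, 8.63 and 4.64 CPM in T wells, against 94.7, 69.2, 105.2 and 134.1 CPM in leukemia wells, and both were lower. Anxa2 stood at 538.7, 512.01, 272.8 and 283.3 CPM in T wells, against 249.6, 260.8, 266.98 and 278.6 CPM in leukemia wells, well above leukemia wells on plates 1 and 2 and close to them on plates 3 and 4. Lgals7, a galectin of stratified epithelia, stood at 146.9, 176.6, 264.2 and 201.4 CPM in T wells, against 0, 0, 1.01 and 0 CPM in leukemia wells. Lgals9 (4.41 ± 0.997) was higher and Anxa1 (-2.21 ± 0.38) lower. Without the 1 T well that held HPC genes, Anxa1 had a difference of -2.66.

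Sialic acid and ganglioside enzymes were more often lower than higher in T wells. Of 20 described, 1 was higher and 8 were lower (median -0.53), where 14.8% and 12.2% of all described genes were. Cmah, the hydroxylase that turns one sialic acid form into another, stood at 0, 1.26, 0 and 0.332 CPM in T wells, against 414.97, 490.1, 400.1 and 455.7 CPM in leukemia wells, 1052.9 (interval 291.1 to 8701) times lower in T wells. Ugcg, which makes the first glycolipid of the ganglioside path, stood at 26.6, 20.2, 11.9 and 19.9 CPM in T wells, against 110.7, 103.5, 123.4 and 152.1 CPM in leukemia wells. St3gal5, which makes GM3 further along the path, stood at 0, 1.68, 0 and 0 CPM in T wells, against 56.6, 52.3, 63.7 and 55 CPM in leukemia wells. St8sia1, which makes GD3 from GM3, stood at 0, 0.841, 0 and 0 CPM in T wells, against 30.4, 32.9, 26.8 and 28.4 CPM in leukemia wells. B4galnt1, which leads to GM2, stood at 6.87, 1.68, 6.47 and 11.9 CPM in T wells, against 53.2, 47.4, 55.6 and 37.9 CPM in leukemia wells, so each of these steps was lower in T wells on all plates. St3gal2, a sialyltransferase that acts on more complex gangliosides, was the higher one (3.74 ± 1.17). Galnt6, which starts O-linked chains, stood at 92.8, 118.97, 345.1 and 275.7 CPM in T wells, against 0, 0, 0.506 and 0 CPM in leukemia wells.

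Among 7 described high mobility group genes, 0 were higher and 1 lower in T wells. Hmgn1, a nucleosome-binding protein, stood at 0, 4.204, 0.809 and 0 CPM in T wells, against 525.7, 474.1, 603.7 and 599.9 CPM in leukemia wells. Its relative Hmgn2 stood at 597.4, 514.5, 645.4 and 674.5 CPM in T wells, against 494.8, 488.7, 569.3 and 625.3 CPM in leukemia wells, and the plates overlapped. Hmgb1 (0.027 ± 0.074) and Hmgb2 (-0.16 ± 0.15) were level too. Of 21 described DNA methylation and Polycomb genes, 4 were higher and 6 lower (median -0.091). Bmi1, a Polycomb subunit, stood at 126.3, 103.8, 171.5 and 181.1 CPM in T wells, against 31.3, 18.4, 28.3 and 36 CPM in leukemia wells. Jarid2, a cofactor of the other Polycomb complex, stood at 15.5, 14.3, 16.2 and 23.9 CPM in T wells, against 63.4, 71.6, 66.2 and 84.4 CPM in leukemia wells. Dnmt3b (-1.78 ± 0.46) was lower, and Dnmt1 (0.37 ± 0.31) and Dnmt3a (-0.32 ± 0.43) were in neither group. Tet2 (2.31 ± 0.79) was higher and Tet1 (-1.64 ± 0.65) lower, an opposite direction for 2 enzymes that both oxidise methylcytosine.

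Of 6 described imprinted or developmental noncoding genes, 1 was higher and 2 were lower. Igf2r, expressed from the maternal allele in mice, stood at 56.7, 46.7, 52.8 and 68.3 CPM in T wells, against 1.69, 1.94, 1.01 and 0 CPM in leukemia wells. Plagl1, a zinc finger factor of growth control that is imprinted, stood at 0 CPM on every plate in T wells, against 271.3, 313.5, 225.5 and 233.6 CPM in leukemia wells, at least 417.3-fold lower in T wells, and Cdkn1c was lower too. Of 5 described germline and ectopic genes 2 were higher, Tex19.1 and Xlr3a (1.44 ± 0.20), and the Xlr copies, with 86.6% of the positive Xlr3a values not whole, cannot be told apart. Among sex chromosome dosage genes, Kdm5c was higher (1.18 ± 0.44), Xist stood at 1.26 against 0.237 CPM in T and leukemia wells, and Ddx3x, Kdm6a and Eif2s3x were in neither group.

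Among listed genes that respond to signals, more were lower than higher by 2-fold, in small counts. Over all described genes, 14.8% were higher and 12.2% lower. Of 17 described immediate early and AP-1 genes, 2 were higher and 5 lower (median 0.23, the other sign from the balance of calls). In the proximal signalling, cytokine receptor, zinc, G1, replication, interferon, high mobility group and imprinted lists, too, the median had the other sign from the balance of calls. Fos stood at 41.2, 101.7, 20.5 and 32.2 CPM in T wells, against 3.38, 4.84, 1.01 and 0.948 CPM in leukemia wells. Jund (-1.98 ± 1.33), Klf6 (-1.80 ± 0.65), Ier5 (-1.94 ± 1.09) and Nr4a2 (-3.32 ± 1.20) were lower. Of 16 described Dusp, Rgs and Spry genes, which damp kinase and G protein signals, 1 was higher and 5 were lower (median -0.29). Rgs10 (4.28 ± 1.68) was the higher one. Spred1, an inhibitor of the Ras pathway, stood at 0, 2.52, 0 and 0 CPM in T wells, against 53.2, 52.3, 58.1 and 73.5 CPM in leukemia wells. Rgs2 stood at 10.7, 41.2, 8.63 and 12.6 CPM in T wells, against 241.1, 238.04, 168.4 and 169.6 CPM in leukemia wells, with no overlap of the plates.

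Of 19 described calcium and ion channel genes, 6 were higher and 5 lower (median 0.11). Kcnn4, the calcium-gated potassium channel of activated T cells, stood at 73.5, 86.6, 120.2 and 102.2 CPM in T wells, against 0 CPM on every plate in leukemia wells. Cacna2d2, a calcium channel subunit known from brain, stood at 0, 1.68, 0 and 2.32 CPM in T wells, against 272.98, 317.9, 304.4 and 308.5 CPM in leukemia wells. Cacna1d, the pore of another calcium channel, stood at 0 CPM on every plate in T wells, against 15.2, 27.1, 16.2 and 17.1 CPM in leukemia wells. Of the store-operated entry genes, Stim2 was higher (1.92 ± 0.22), Orai3 lower (-1.26 ± 0.40) and Stim1 and Orai1 in neither group. The log2 difference of Stim1 was -0.34, and -0.035 without the 13 mixed wells. Of the calcium release channels of the endoplasmic reticulum, Itpr2 (2.42 ± 0.21) and Itpr3 (1.996 ± 0.14) were higher and Itpr1 (-1.02 ± 0.51) lower. Of 14 described Notch and Wnt genes, 2 were higher, led by Ctnnbip1 (4.27 ± 0.57), and 3 lower, led by Fzd6 (-4.26 ± 0.41). Ctnnb1, or beta-catenin, averaged 239.2 CPM in T wells and 122.1 CPM in leukemia wells (0.96 ± 0.13).

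**Figure D4:**
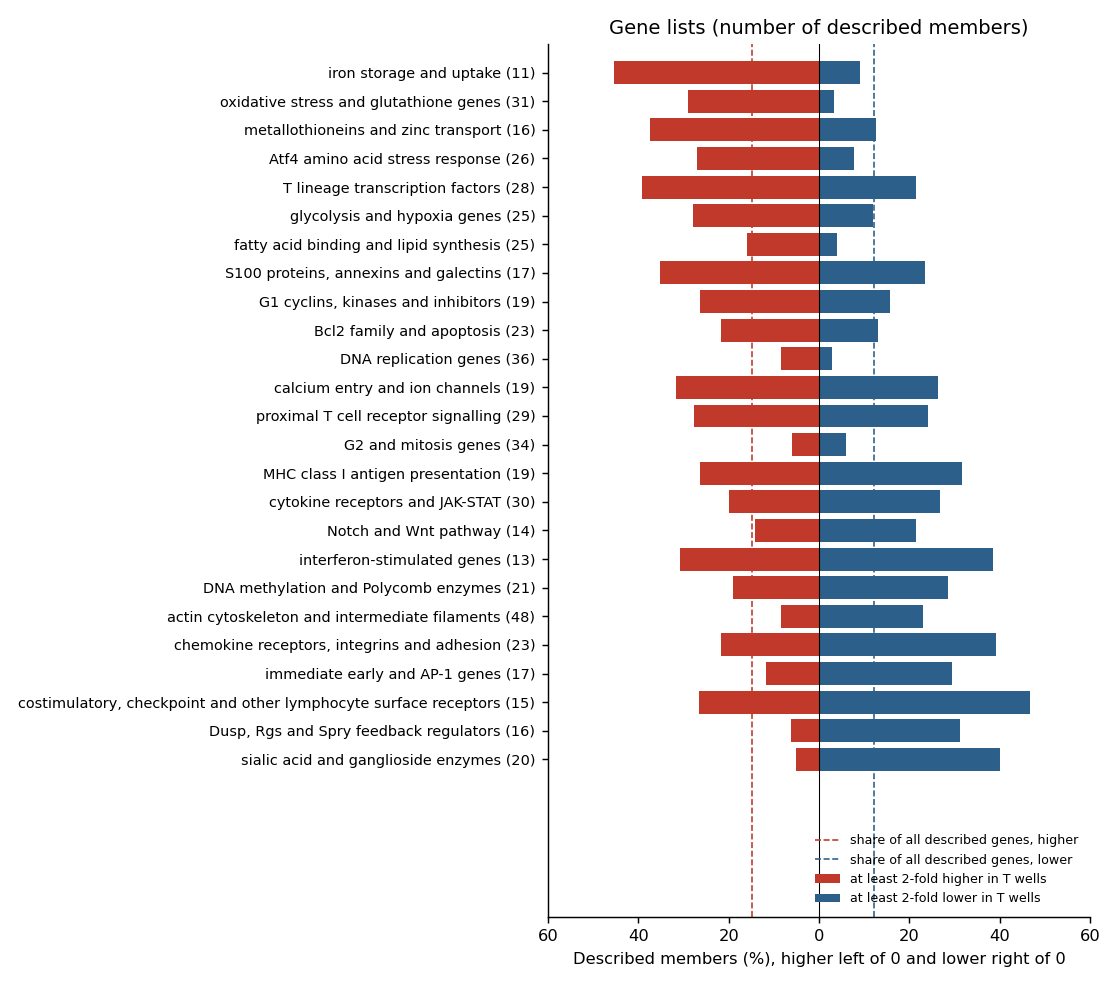
Share of each list's described members (number in parentheses) that were higher in T wells by 2-fold or more (bars left of 0) or lower (bars right of 0), for lists with at least 10 described members. Dashed lines give the shares of all described genes, 14.8% and 12.2%, and the DNA replication and G2 and mitosis lists fall short of both.

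The HPC wells of plates 1 to 3 gave a point outside both lines. Of the genes higher in T wells, HPC wells stood within 2-fold of T wells and at least 2-fold from leukemia wells for 21.8%, and within 2-fold of leukemia wells and at least 2-fold from T wells for 42.04%. Of the genes lower in T wells, they stood near T wells in this sense for 31.8% and near leukemia wells for 32.5%. Of the 25 genes with the largest differences upward, 11 had under 3 CPM in HPC wells, and 6 reached at least 50% of the T level there, namely Fabp5, Cdk6, Mt1, Cdkn1a, Kcnn4 and Blmh. Cdk6 stood at 530.7 CPM in HPC wells and Fabp5 at 440.4 CPM. Of the 25 downward, 7 had under 3 CPM in HPC wells, and Hmgn1 (438.99 CPM), Satb1 (191.3 CPM) and Cd27 (67.1 CPM) reached at least 50% of the leukemia level. Each comparison uses the same T or leukemia wells, so the counts share them.

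Median differences varied between chromosomes. Of the described genes, 8060 matched a chromosome in RefSeq for GRCm38.p6. The genes of chromosome 6 had a median log2 difference of -0.49, with plate medians of -0.44, -0.51, -0.45 and -0.37, against 0.032 over the genes of all other chromosomes. Of these genes, 96 (25.2%) were lower and 35 (9.19%) higher in T wells, where 12.2% and 14.8% of all described genes were. The median was -0.48 without the Gimap genes. It was -0.25 (plates -0.29 to -0.20) over the 250 genes counted as neither higher nor lower. Leaving out the counted genes removes more lower than higher ones, which by itself moves the median toward 0. In 6 consecutive blocks along the chromosome the median lay between -0.84 and -0.15, below 0 on all plates in each. Against HPC wells of plates 1 to 3, the chromosome 6 median was 0 to 2 decimals for T minus HPC and 0.48 for leukemia minus HPC. Other chromosomes were shifted from HPC wells too. In the same order, chromosome 3 stood at 0.67 and 0.60, chromosome 17 at 0.14 and 0.40 and X at 0.56 and 0.33. Over all genes, taken the other way round, HPC minus T and HPC minus leukemia both had a median of -0.12, so both lines stood slightly above HPC wells.

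Chromosomes 17 (-0.26), 16 (-0.25) and 1 (-0.23) had the next lowest medians, and chromosomes 15 (0.30), 12 (0.29), 9 (0.26) and X (0.22) the highest, each with the same sign on all 4 plates. The medians of chromosomes 2, 3, 4, 7, 8, 10, 11, 13, 18 and 19 lay between -0.09 and 0.10. Several genes named above lie on chromosome 6, among them the Gimap genes, Klrd1, Klrk1 and Cd69, which were lower in T wells, and Tnfrsf1a, Ldhb, Cd8b1 and Itpr2, which were higher. The cells' chromosome numbers were not measured.

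**Figure D5:**
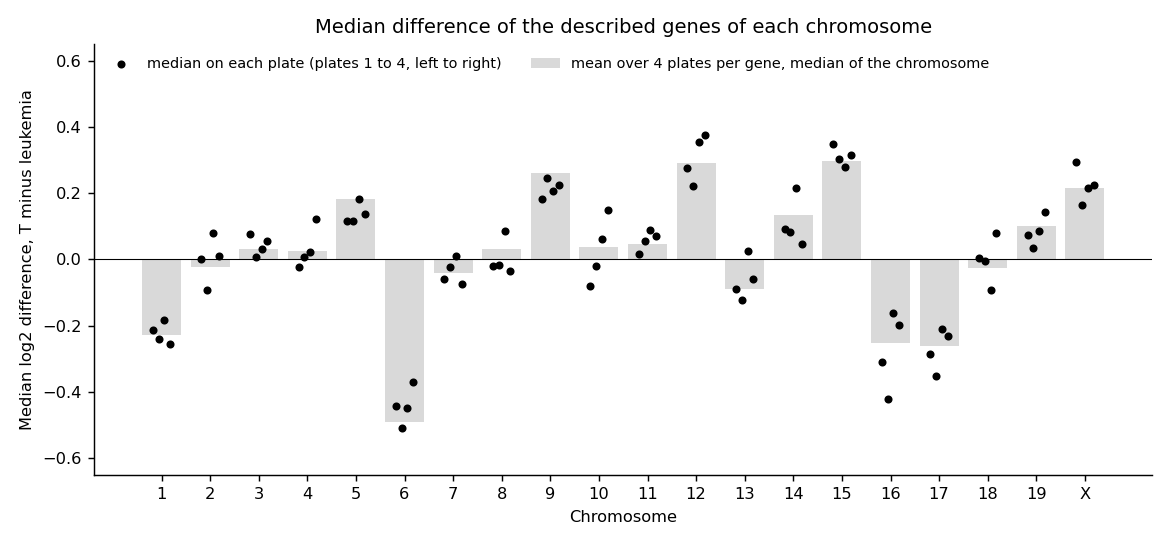
Median log2 difference, T minus leukemia, of the described genes of each chromosome (bars, from the mean over plates of each gene) with the median on each of the 4 plates (points). Chromosome 6 lies lowest at -0.49 with plates from -0.51 to -0.37, and chromosomes 15 and 12 lie highest at 0.30 and 0.29.

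Structural noncoding RNAs, grouped after their values had been seen, were more often higher than lower in T wells. RNA was copied from an oligo(dT) primer, and how well it captures these RNAs was not tested. The values below are therefore levels of counts and may not follow the amounts of the RNAs. Of 10 described, 6 were higher and 1 lower in T wells, where 14.8% and 12.2% of all described genes were. Rn4.5s, a short RNA related to repeat elements, stood at 43484, 41058, 10747 and 12469.9 CPM in T wells, against 6299.7, 9477, 1434.2 and 1464.5 CPM in leukemia wells, so it was higher in T wells on each plate and higher on plates 1 and 2 in both lines. It made up 4.35, 4.11, 1.07 and 1.25% of the counts of T wells and 0.63, 0.95, 0.14 and 0.15% of those of leukemia wells. Snord118, the U8 small nucleolar RNA, stood at 138.3, 158.9, 8.63 and 27.2 CPM in T wells, against 2.54, 5.81, 6.07 and 5.69 CPM in leukemia wells. Rpph1, the RNA of ribonuclease P, was lower in T wells (-2.05 ± 0.78), and Malat1 averaged 1055.5 CPM in T wells and 834.6 CPM in leukemia wells (0.36 ± 0.40).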

How the data were processed

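RNA was counted in 120 T and 126 leukemia wells, 246 in all, on 4 plates of cells picked by type. The authors deposited expected counts, which are read here as estimated numbers of molecules for each gene in each well. They are not scaled between wells, and 5.44% of the positive values used here were not whole numbers. Per the submitters' processing notes, bcl2fastq, STAR and the genome build mm10 were used. Not given in the sources used here are tool versions, how reads were counted, whether strand was used, and how wells were filtered. The table has 24781 genes and no row for spike-ins or mitochondrially encoded genes. The other 1517 cell line columns and the blood cell table were not used.

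Wells were grouped by label. Counts were summed per plate and line, with Rn45s kept in the total, and scaled to CPM, and log2 (CPM + 1) was compared within plates. No count model was used, since each line is 1 sample. A gene with 0 counts in a line entered its ratio at a floor of 3 counts over that line's wells. Ratios carry exact conditional binomial intervals and shares Clopper-Pearson 95% intervals. These cover counting error only. Over the 4 plates, 1225 genes were higher and 1007 lower by 2-fold or more. Values were rounded only for thinning (10000 counts, seed 1), which dropped no well. The 25 largest differences each way were named, among genes of at least 50 CPM and 30 counts in 1 line with 1 sign on 4 plates and no predicted or Rik symbol, plus members of 39 gene lists and of 2 lists added later. Some genes that the rule names are not reported here. The members and lists were chosen with earlier results of these data known. Line genes were at least 8-fold above both other lines with at least 50 CPM on each of the other 3 plates, up to 50 per line. The comparison was run on simulated counts with known changes. Both groups were drawn from the leukemia plate sums with counting error only, so this checks the calculation and not the spread between plates or wells. The work used scipy 1.17.1, pandas 2.3.3, numpy 2.4.6 and matplotlib 3.10.9 under python 3.11.15, and edgeR 4.0.16 under R 4.3.3 for TMM factors only.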

Additional observations from a re-analysis of the deposited data

How the results depend on the processing

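Genes 2-fold apart made up 4.94% (higher in T wells) and 4.06% (lower) of the 24781 genes listed. Both shares stayed within 1.5 times under a pseudocount of 5 or 0.5 CPM, TMM factors, a total without Rn45s (or, chosen after seeing the data, without Rn45s and Rn4.5s), means of well CPM and thinned wells. The same held without the 13 mixed wells, and without only the 1 T well that held HPC genes. TMM called again 99.5% of the higher genes and every lower gene, thinned wells 78.5% and 83.1%. Without replicate 1, 2, 3 or 4 (a plate), 4.87 to 5.39% were higher and 4.08 to 4.205% lower. The plate acts as a replicate block, since values are within-plate differences. No test was run on them. With no replicate block, that is with the plates pooled, 5.08% were higher and 4.01% lower. A minimum of 50 CPM gave 1.88% and 1.62% and a 4-fold limit 2.17% and 1.81%, since fewer genes could count, and no minimum gave 7.27% and 5.67%. The 7 and 7 genes seen in nearly all wells of 1 line became 32 and 23 without thinning and 13 and 14 at 80% and 10%. With thinned wells Hes6, counted as lower in T wells, had a difference of 0.19, and the cause was not tested. No other called gene from the lists or the 50 largest differences changed its direction under the settings run on single genes. The 50 largest differences moved by more than their SD over plates for all 50 genes at a pseudocount of 5 CPM and for 42 at 0.5 CPM, since that choice sets the size where 1 line is near 0. No scaling moved the median over described genes by more than 0.024. Depth limits genes below about 10 CPM, and 11093 genes had no count in either line.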

Other observations

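Lrrc17, a secreted leucine-rich repeat protein outside the lists, was picked out after its values had been seen. It stood at 4541, 3782, 4616 and 2524 CPM in T wells, against 992.8, 1101.3, 984.5 and 1146.1 CPM in leukemia wells. Its lowest, median and highest well levels were 0, 2349 and 25369 CPM over the T wells, against 0, 328.4 and 9943 CPM over the leukemia wells, a wide spread within each line. Within the T line, Lef1, a partner of Tcf7, differed between plates 1 and 2 and plates 3 and 4, with 51.6, 47.1, 195.2 and 134.03 CPM in T wells against 32.1, 26.1, 25.3 and 29.4 CPM in leukemia wells. Zbtb7b, which directs thymocytes to the helper fate, differed in the other direction, with 84.6, 73.1, 31.8 and 18.6 CPM in T wells against 2.54, 7.74, 4.05 and 3.79 CPM in leukemia wells.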
